A study of Rattus norvegicus with 35 samples.

Results

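A set of 10 genes of hepatic lipid storage and fatty acid handling were followed across a rat feeding study: Cidea, Cideb, Cidec, Plin2, Plin5, Fabp1, Fabp5, Cd36, Pnpla2 and Dgat2. The members were taken as the array probe sets whose platform gene symbol was 1 of these names, and the probe set with the highest mean stood for each gene. All 10 genes were measured, by 12 probe sets of the 31042 tested, among 14217 genes with a single symbol. No filter on low values was applied, so every member stayed in every comparison.

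Lipid droplets store triglyceride under a coat of proteins, and hepatocytes fill and empty them with the supply of fatty acids. The CIDE proteins Cidea, Cideb and Cidec sit at droplet surfaces, where Cidea and Cidec promote fusion into larger droplets and Cideb is also known for its part in the lipidation of very-low-density lipoprotein. Plin2 and Plin5 are perilipins of the droplet coat, Fabp1 and Fabp5 carry fatty acids in the cytosol, and Cd36 takes them up at the cell surface. Dgat2 catalyses the last step of triglyceride synthesis, and Pnpla2, adipose triglyceride lipase, starts its breakdown. In normal liver Fabp1 is among the most abundant messages, whereas Cidea is best known from brown fat and appears in fatty liver.

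Upstream sequences are shown for 3 members whose scores behaved differently: Cidea, which rose at 2 high feed levels, its relative Cideb, and Fabp1, for which no comparison passed the test. RefSeq promoter entries on the GRCr8 build matched 8 of the 10 genes. Each run below is the 250 bases upstream of the annotated start, written 5′ to 3′ on the gene's strand. Cidea lies at chr18:63164567-63164816 on the plus strand, Cideb at chr15:33226408-33226657 on the minus strand and Fabp1 at chr4:104749090-104749339 on the plus strand. Capitals mark matches, on either strand, to GCGTG, to AGGTCA, or to a DR1, which is AGGNCA, any base, and AGGNCA again.
Cidea: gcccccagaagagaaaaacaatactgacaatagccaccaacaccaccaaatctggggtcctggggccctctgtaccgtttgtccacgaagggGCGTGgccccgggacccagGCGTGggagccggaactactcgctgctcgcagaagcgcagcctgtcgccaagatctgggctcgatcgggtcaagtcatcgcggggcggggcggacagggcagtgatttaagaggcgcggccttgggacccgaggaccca
Cideb: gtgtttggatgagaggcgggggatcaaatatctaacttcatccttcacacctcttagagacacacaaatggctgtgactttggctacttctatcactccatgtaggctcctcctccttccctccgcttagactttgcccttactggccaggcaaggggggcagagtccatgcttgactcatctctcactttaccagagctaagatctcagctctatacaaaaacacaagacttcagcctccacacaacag
Fabp1: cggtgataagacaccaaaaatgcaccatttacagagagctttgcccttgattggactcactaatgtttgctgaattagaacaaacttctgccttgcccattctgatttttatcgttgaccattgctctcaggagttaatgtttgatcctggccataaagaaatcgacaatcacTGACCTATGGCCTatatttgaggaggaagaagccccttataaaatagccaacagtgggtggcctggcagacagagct
GCGTG is the core bound by the aryl hydrocarbon receptor with its partner, and the DR1 is the arrangement bound by peroxisome proliferator-activated receptors. The Cidea window held 2 matches to GCGTG, which start 158 and 139 bases upstream. Of all 33469 promoter windows of this length, 25.9% held that motif, and it was also in those of Cidec and Plin5. The capitals in the Fabp1 window are 1 DR1 that overlaps 1 match to AGGTCA. A DR1 was in 0.368% of all windows and AGGTCA in 14.1%. None of the 3 motifs was found in the Cideb window. These matches describe letters and are not evidence of binding.

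The animals were Wistar Han IGS rats whose exposure, through the feed, began on gestation day 6 and ended on postnatal day 92. Controls had 0 ppm. The others had myclobutanil at 500 or 2000 ppm, propiconazole at 500 or 2500 ppm, or triadimefon at 500 or 1800 ppm. These 3 fungicides share a triazole ring. Myclobutanil carries a nitrile, propiconazole a cyclic ketal and triadimefon a ketone. The RNA of each animal was read on its own Affymetrix rat expression array. Of 35 arrays listed, 32 held values and were used: 7 controls, 5 of myclobutanil 500 ppm, 4 of 2000 ppm, 3 of propiconazole 500 ppm, 4 of 2500 ppm, 5 of triadimefon 500 ppm and 4 of 1800 ppm. The design text calls them biological replicates. The sources used here do not say whether animals shared litters, and the p-values treat them as independent. The precision is limited by the number of arrays.

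Each value is a score deposited by the authors with a scale, log base and normalisation not given in the sources used here. Differences are therefore differences of score and not fold changes. Levels of different genes are not set against each other, apart from the ranks of marker genes in the controls. Sums over a list of markers are read only between groups. Array medians lay between 0.00531 and 0.0585. The spread differed more, with array SDs from 0.701 to 1.02, the highest on myclobutanil 500 ppm replicate 1. Apart from the fit after quantile normalisation, scores were not rescaled for this spread.

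Several arrays stood apart. In 9 arrays (controls 4 to 7, myclobutanil 500 ppm replicates 1 and 5, triadimefon 1800 ppm replicates 2 to 4) the 3′ control probe set for GAPDH exceeded the 5′ one by over 0.9. This difference is a reading of RNA integrity. Averaged over GAPDH and β-actin, it was 1.30 ± 0.595 (SD, n = 7) in controls and 1.49 ± 0.375 (SD, n = 4) at triadimefon 1800 ppm, against group means of 0.518 to 0.694 in 4 of the other groups. At myclobutanil 500 ppm it was 1.21 ± 0.849 (SD, n = 5). Animals numbered above 3000 made up 3 of the 7 controls and 3 of the 4 triadimefon 1800 ppm animals, and no other group had any. The extraction text in the labels names testis, whereas the titles and the labelling text name liver. Alb, the albumin gene and a hepatocyte marker, had a mean control score of 5.67, at percentile 100 of the control means of all probe sets. The 9 measured hepatocyte markers lay at percentiles from 94.7 (Tat) to 100. The 10 testis markers lay from 26.0 (Star) to 82.9 (Prm1). By rank, hepatocyte transcripts were thus at the top in the controls, and whether some testis RNA was present was not tested. The sperm histone replacement gene Tnp1 nevertheless scored over 0.9 in 5 arrays: myclobutanil 500 ppm replicates 2 and 5, 2000 ppm replicate 5, triadimefon 500 ppm replicate 3 and 1800 ppm replicate 2. For the members, results are given with and without these arrays where a call depended on them. For the pathway and marker genes, results without these arrays are not given.

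Against the controls, Cidea rose at propiconazole 2500 ppm and at triadimefon 1800 ppm, and Fabp5 fell at propiconazole 2500 ppm. No other member passed the test against the controls, which was limma's moderated test with Benjamini-Hochberg adjustment over all 31042 probe sets and a threshold of 0.05. At propiconazole 2500 ppm, 2 of 10 members passed, where 0.254% of all probe sets did. At triadimefon 1800 ppm, 1 of 10 passed against 1.17% of all. That comparison called 322 probe sets higher and 40 lower, and after quantile normalisation 70.6% of its calls were higher. The other groups had 0 members called by limma: the share of all probe sets called was 0.0644% at myclobutanil 2000 ppm, 0.00966% at triadimefon 500 ppm, and 0% at myclobutanil 500 ppm and propiconazole 500 ppm. At an unadjusted p under 0.05, the members numbered 6 at myclobutanil 2000 ppm, 6 at triadimefon 500 ppm, 3 at propiconazole 500 ppm and 0 at myclobutanil 500 ppm. In the same order, 7518, 9108, 2866 and 1281 probe sets reached that level. The median difference over the 10 members was -0.41 at myclobutanil 2000 ppm, -0.27 at propiconazole 2500 ppm, -0.32 at triadimefon 500 ppm and 0.07 at triadimefon 1800 ppm. Over all probe sets the medians in these comparisons were -0.04, -0.03, -0.04 and 0.02.

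**Figure D1:**
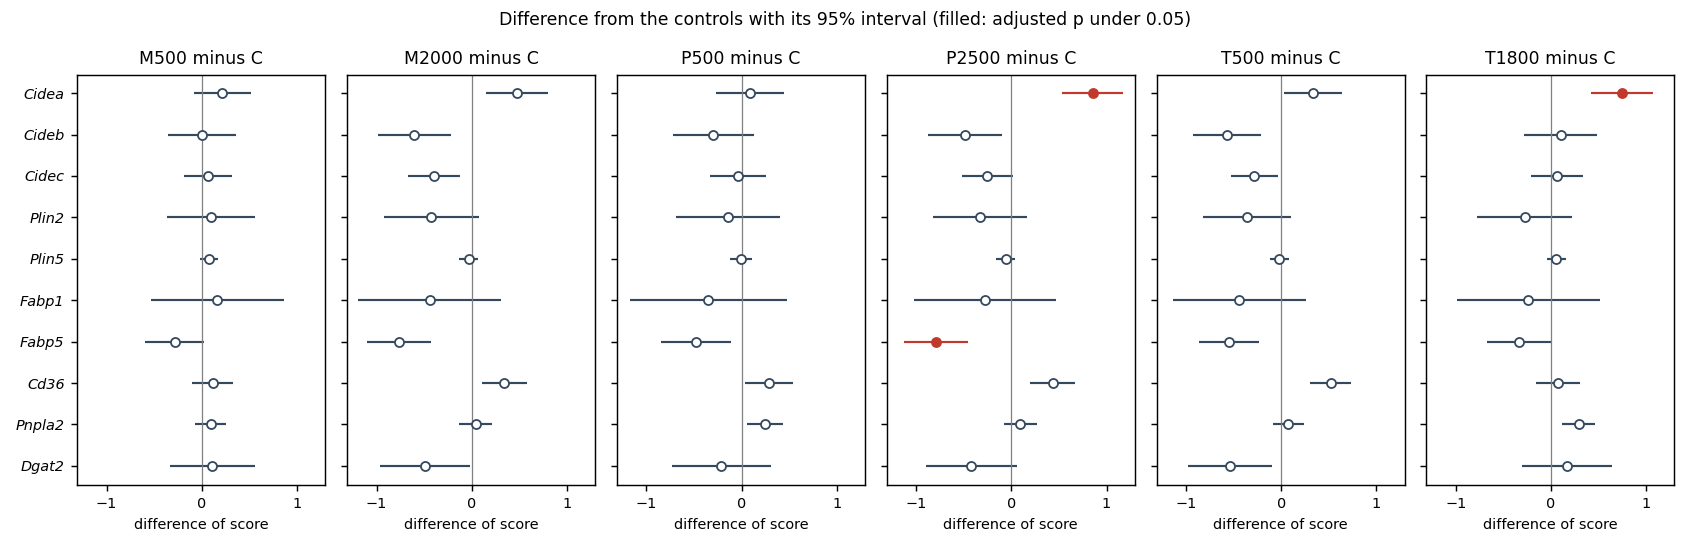
Difference of score from the controls (x axis) for each of the 10 genes (y axis) in the 6 treated groups (M, myclobutanil; P, propiconazole; T, triadimefon; C, control, each with ppm), with 95% intervals from the limma fit; filled red points passed an adjusted p of 0.05. Only Cidea and Fabp5 have filled points, Cidea at P2500 (0.855) and T1800 (0.744) and Fabp5 at P2500 (-0.791).

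Cidea scores were low and close together in the 7 controls, from 0.561 to 0.708 with a median of 0.625. At propiconazole 2500 ppm the 4 livers scored 2.01, 1.23, 1.32 and 1.35, and at triadimefon 1800 ppm the 4 scored 0.939, 1.61, 1.19 and 1.73. Every one of these 8 livers lay above all 7 controls, where 2.83% and 1.41% of all probe sets did not overlap. The difference was 0.855 ± 0.157 (SE; 95% interval 0.533 to 1.18; limma adjusted p = 0.0161) for propiconazole and 0.744 ± 0.157 (SE; 0.422 to 1.07; limma adjusted p = 0.0116) for triadimefon. The levels fed differ between the compounds, so these values stand side by side without a comparison. In bulk liver RNA, a change in the number of cells of a type and a change in RNA per cell cannot be told apart.

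The separation of Cidea extended to groups that missed the threshold. At myclobutanil 2000 ppm the scores were 1.12, 1.08, 1.32 and 0.878, and at triadimefon 500 ppm 1.17, 0.908, 0.938, 1.01 and 0.762. All of these also lay above every control, where 3.57% and 2.34% of all probe sets did not overlap. Their differences were 0.477 ± 0.157 (limma adjusted p = 0.106) and 0.336 ± 0.147 (limma adjusted p = 0.137). Myclobutanil 500 ppm gave 0.959, 0.814, 0.536, 0.831 and 1.04, with 4 of 5 above the controls. Propiconazole 500 ppm gave 0.233, 0.636 and 1.26, which lay below, among and above the controls. In rising order the group means were 0.623 ± 0.0568 for controls, 0.709 ± 0.517 for propiconazole 500 ppm, 0.837 ± 0.193 for myclobutanil 500 ppm, 0.958 ± 0.149 for triadimefon 500 ppm, 1.10 ± 0.181 for myclobutanil 2000 ppm, 1.37 ± 0.368 for triadimefon 1800 ppm and 1.48 ± 0.361 for propiconazole 2500 ppm (SD). Each neighbouring pair in that order lay within the SD of the wider of its groups.

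The Cidea calls rested on few animals. Without propiconazole 2500 ppm replicate 1, the highest liver, the difference was 0.677 (limma adjusted p = 0.101), and without replicate 4 it was 0.899 (limma adjusted p = 0.0641). Without triadimefon 1800 ppm replicate 2, which also carried a high Tnp1 score, it was 0.663 (limma adjusted p = 0.0564), and without replicate 4 it was 0.623 (limma adjusted p = 0.0807). Without all 5 arrays of high Tnp1, the propiconazole difference was 0.855 (limma adjusted p = 0.0287) and the triadimefon difference 0.663 (limma adjusted p = 0.0912). Among animals numbered above 3000, 3 triadimefon 1800 ppm animals differed from 3 controls by 0.862 (limma adjusted p = 0.215). Below 3000 the single triadimefon 1800 ppm animal differed from 4 controls by 0.335 (limma adjusted p = 0.551) and the propiconazole 2500 ppm animals by 0.874 (limma adjusted p = 0.0756).

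**Figure D2:**
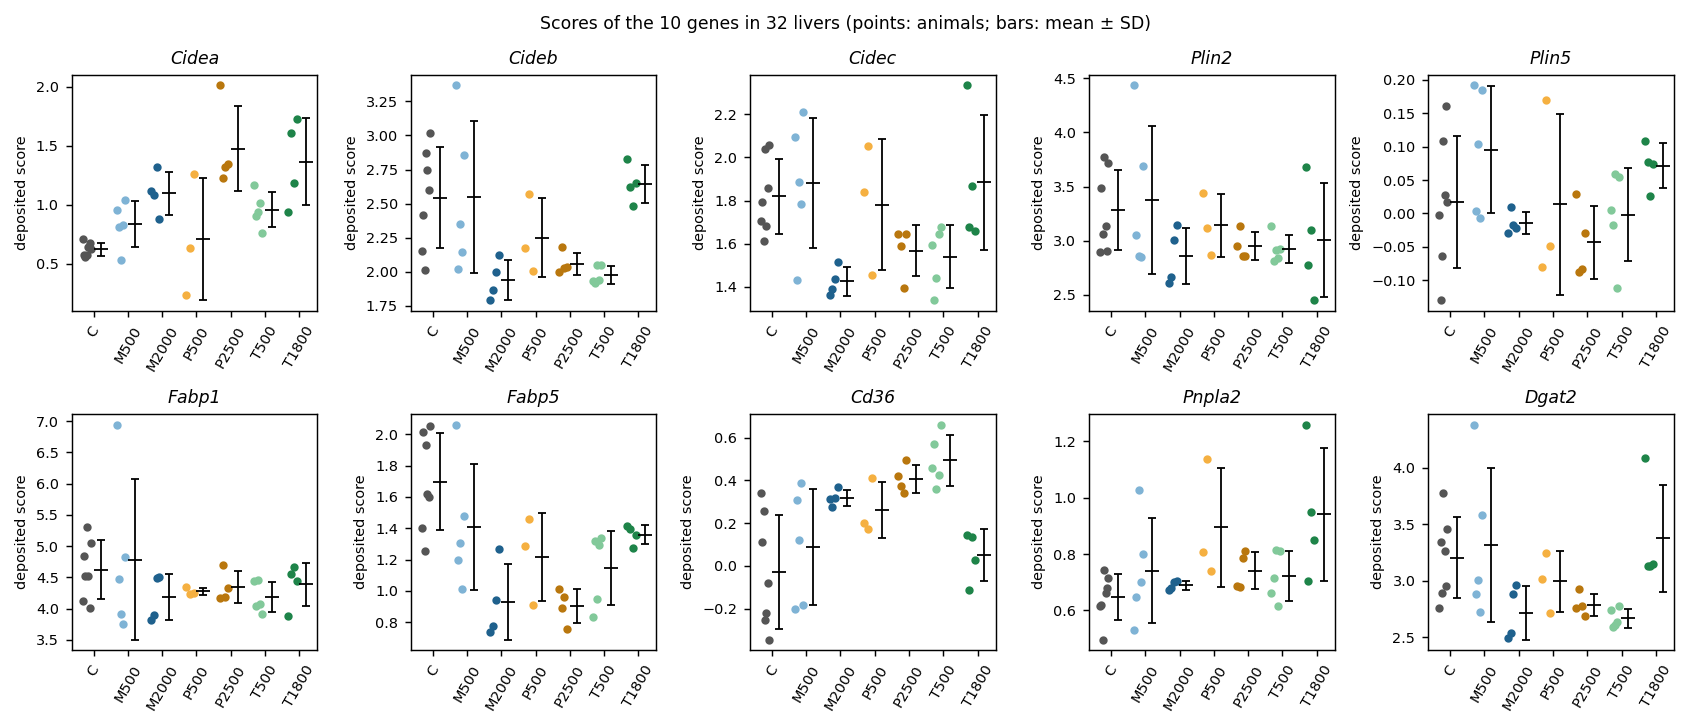
Deposited score (y axis) of each of the 10 genes in the 32 livers, by group (x axis: C, control; M, myclobutanil; P, propiconazole; T, triadimefon, with ppm); points are animals and black bars are mean ± SD. Cidea controls sit between 0.561 and 0.708 with all P2500 and T1800 livers above them, and Fabp5 at P2500 lies wholly below the controls.

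Cideb and Cidec did not follow Cidea. No difference of either gene from the controls passed the test, and their differences were below 0 at the myclobutanil and propiconazole high levels and at triadimefon 500 ppm. Cideb had control scores from 2.01 to 3.01 with a median of 2.60. At myclobutanil 2000 ppm it scored 1.79, 1.86, 1.99 and 2.12, a difference of -0.601 ± 0.188 (SE; limma adjusted p = 0.0974). At triadimefon 500 ppm it scored 1.93, 1.91, 2.05, 1.94 and 2.05, a difference of -0.568 ± 0.175 (SE; limma adjusted p = 0.0773). Of these livers, 3 of 4 and 3 of 5 lay below all controls, and the rest were at the lower end of the control range. At triadimefon 1800 ppm the scores of 2.82, 2.62, 2.48 and 2.65 fell inside the control range, a difference of 0.101 with a 95% interval of -0.284 to 0.487. For Cidec, the control scores ran from 1.61 to 2.06. At myclobutanil 2000 ppm all 4 livers were below them, at 1.36, 1.39, 1.43 and 1.51, a difference of -0.396 ± 0.131 (SE; limma adjusted p = 0.106). Without control replicate 3, 4 members passed at myclobutanil 2000 ppm and 3 at triadimefon 500 ppm. Of all 31042 probe sets, 3013 and 4464 then passed. Without control replicate 1 the member counts were 1 and 3, beside 332 and 3746 of all probe sets.

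The perilipins gave no call in any of the 12 comparisons. Plin2 group means ran from 2.86 ± 0.261 (SD, n = 4) at myclobutanil 2000 ppm to 3.38 ± 0.685 (SD, n = 5) at myclobutanil 500 ppm, with controls at 3.28 ± 0.372 (SD, n = 7). The intervals were wide: at triadimefon 1800 ppm the difference from controls was -0.278 with a 95% interval of -0.776 to 0.219. After quantile normalisation that difference was -0.449 (limma adjusted p = 0.0195) and passed. A second Plin2 probe set, at 0.344 ± 0.162 (SD, n = 7) in controls, had differences of -0.267 to -0.151 in the 6 treated groups, none past the threshold (limma adjusted p from 0.0901 to 1). Plin5 scored near 0 everywhere, with group means from -0.0430 to 0.0952, and its differences from the controls lay between -0.0599 and 0.0783.

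Of the cytosolic carriers, Fabp5 was lower and Fabp1 showed no difference past the threshold. Fabp5 control scores ran from 1.26 to 2.05 with a median of 1.62. At propiconazole 2500 ppm the livers scored 1.01, 0.893, 0.962 and 0.757, all below every control, a difference of -0.791 ± 0.163 (SE; 95% interval -1.13 to -0.456; limma adjusted p = 0.0313). At myclobutanil 2000 ppm the scores were 0.739, 0.773, 0.944 and 1.27, so 1 liver overlapped the controls, and the difference was -0.766 ± 0.163 (SE; limma adjusted p = 0.0580). Fabp5 at the other levels had differences of -0.551 for triadimefon 500 ppm, -0.478 for propiconazole 500 ppm, -0.337 for triadimefon 1800 ppm and -0.286 for myclobutanil 500 ppm, none past the threshold. The sign was thus negative in 6 of 6 groups, which share the same controls. The propiconazole call was lost on leaving out any 1 of its 4 animals or any 1 of controls 4 to 7, with differences from -0.732 to -0.826 (limma adjusted p from 0.0520 to 0.173). It was also lost without the 9 arrays of high 3′ over 5′ signal, at -0.652 (limma adjusted p = 0.248). Fabp1 scored 4.62 ± 0.471 (SD, n = 7) in controls and between 4.18 and 4.78 in the treated groups, and its interval at propiconazole 2500 ppm ran from -1.03 to 0.467. One myclobutanil 500 ppm liver, replicate 1, scored 6.94 for Fabp1. That array had the highest 3′ over 5′ reading, 2.45, and the highest SD of scores, 1.02.

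Cd36, the fatty acid translocase, had low scores that were higher in 6 of 6 treated groups than in controls, and none passed. Controls ran from -0.344 to 0.342 with a median of -0.0783. At triadimefon 500 ppm the livers scored 0.457, 0.569, 0.359, 0.424 and 0.661, all above every control, a difference of 0.520 ± 0.106 (SE; limma adjusted p = 0.0503). At propiconazole 2500 ppm they scored 0.421, 0.373, 0.339 and 0.493, a difference of 0.433 ± 0.113 (SE; limma adjusted p = 0.0783). Of those 4 livers, 3 were above all controls. Myclobutanil 2000 ppm differed by 0.344 ± 0.113 (SE; limma adjusted p = 0.106) and triadimefon 1800 ppm by 0.0761, with a 95% interval of -0.157 to 0.309. After quantile normalisation the triadimefon 500 ppm difference was 0.570 (limma adjusted p = 0.0319).

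Neither enzyme passed against the controls. Pnpla2 had control scores from 0.496 to 0.744, and at triadimefon 1800 ppm the scores were 1.26, 0.704, 0.949 and 0.849. Of these 4 livers, 3 lay above all controls, and the difference was 0.293 ± 0.0843 (SE; limma adjusted p = 0.0927). It passed without replicate 2 of that group, at 0.372 (limma adjusted p = 0.0312). Dgat2 had control scores from 2.75 to 3.78. At myclobutanil 2000 ppm it scored 2.49, 2.54, 2.88 and 2.96, a difference of -0.487 ± 0.231 (SE; limma adjusted p = 0.196), and at triadimefon 500 ppm 2.74, 2.59, 2.61, 2.64 and 2.78, a difference of -0.536 ± 0.216 (SE; limma adjusted p = 0.116). The second Dgat2 probe set disagreed in sign in both, with differences of 0.0652 and 0.0311.

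High and low feed levels were compared within each compound. For triadimefon, 3 of 10 members differed between 1800 and 500 ppm, where 24.8% of all 31042 probe sets did. Cideb was higher at 1800 ppm by 0.669 ± 0.201 (SE; limma adjusted p = 0.0210), with all 4 livers above all 5 at 500 ppm, where 24.1% of all probe sets did not overlap. Dgat2 was higher by 0.706 ± 0.248 (SE; limma adjusted p = 0.0393), with scores of 4.08, 3.13, 3.13 and 3.15 at 1800 ppm. Without replicate 1, the highest, its difference was 0.470 (limma adjusted p = 0.149), and its second probe set gave -0.156. Leaving out any 1 of the 5 animals at 500 ppm, or replicate 4 at 1800 ppm, also ended the Dgat2 call, with differences of 0.686 to 0.781 (limma adjusted p from 0.0515 to 0.0696). Cd36 was lower by 0.444 ± 0.121 at 1800 ppm (SE; difference -0.444, limma adjusted p = 0.0140), with scores of 0.147, -0.113, 0.137 and 0.0286 that all lay under those at 500 ppm. Without the arrays of high Tnp1, none of the 3 passed (limma adjusted p from 0.0517 to 0.0855). These groups also differed in the 3′ over 5′ reading, 1.49 against 0.518. Of all the calls in that comparison, 6927 were higher and 763 lower, and after quantile normalisation 55.3% were higher. For myclobutanil and propiconazole, limma called 0% of probe sets and 0 members between levels. Unadjusted p-values under 0.05 numbered 5 members of 10 for myclobutanil, against 3404 of all probe sets, and 1 member for propiconazole, against 365. That member was Cidea, higher at propiconazole 2500 than at 500 ppm by 0.768 ± 0.191 (SE; limma adjusted p = 1).

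At 500 ppm, the level that all 3 compounds share, no member passed between any pair of compounds. Limma called 0% of probe sets and 0 of 10 members in each of the 3 pairs. Unadjusted p-values under 0.05 numbered 4 members for myclobutanil against triadimefon, with 5934 of all probe sets, and 0 members in the other pairs, with 1332 and 772 probe sets. The 4 members were Cideb, Cidec, Cd36 and Dgat2. For Cidea, the difference between the nitrile compound and the ketone, myclobutanil minus triadimefon, was -0.122 with a 95% interval of -0.447 to 0.204. The ketal against the ketone, propiconazole minus triadimefon, gave -0.249 (-0.625 to 0.127), and myclobutanil minus propiconazole gave 0.127 (-0.248 to 0.503). Fabp5 differed between myclobutanil and triadimefon by 0.265 (-0.0736 to 0.603). That no member passed does not show that the compounds act alike.

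Over all arrays, the r of 8 members with the 3′ over 5′ reading of the same array passed the test, and those of Cidea and Pnpla2 did not. These 10 relations were computed over the 32 arrays, with permutation p-values adjusted over the 10. The permutations ignored the 7 groups, whose mean reading ran from 0.518 to 1.49. These p-values therefore do not separate differences between groups from a relation within them. The same test was not run over all probe sets, so no share stands beside the 8. Cideb had r = 0.930 (Spearman's rho = 0.783, permutation p = 1e-05, the smallest that 100000 resamples can give, adjusted p = 2.5e-05 for r and 3.33e-05 for rho). Without the 2 arrays farthest out on the reading it had r = 0.892. Within the 9 arrays of high reading r was 0.886 (exact permutation p = 0.00113, adjusted 0.0113) and within the other 23 it was 0.816 (permutation p = 8e-05, adjusted 0.0004). Cd36 ran the opposite way, with r = -0.905 (rho = -0.826, permutation p = 1e-05, adjusted p = 2.5e-05 for r and 3.33e-05 for rho), -0.894 without the 2 farthest arrays, -0.646 within the 9 (exact permutation p = 0.0587, adjusted 0.0978) and -0.668 within the 23 (permutation p = 0.0004, adjusted 0.00133).

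For the other members r over the 32 arrays was 0.793 for Dgat2, 0.746 for Fabp5, 0.684 for Fabp1, 0.609 for Cidec, 0.582 for Plin5 and 0.576 for Plin2, with adjusted permutation p for r from 2.5e-05 to 0.0012. Spearman's coefficient for these 6 ran from 0.276 to 0.719, and for Plin2, the lowest, it did not pass (adjusted permutation p = 0.16). Without the 2 farthest arrays r was between 0.296 and 0.708, and within the 23 arrays r was 0.0603 for Fabp1 (permutation p = 0.786) and 0.229 for Plin5 (adjusted permutation p = 0.365). Cidea had r = 0.0007 and rho = 0.0114 (permutation p = 0.997 and 0.951, the same after adjustment), 0.0904 without the 2 farthest arrays, -0.0178 within the 9 (exact permutation p = 0.965) and -0.174 within the 23 (permutation p = 0.411). Pnpla2 had r = 0.0089 and rho = 0.209 overall (permutation p = 0.964 and 0.251; adjusted 0.997 and 0.279), but -0.670 within the 9 (exact permutation p = 0.0465, adjusted 0.0931) and 0.580 within the 23 (permutation p = 0.00891, adjusted 0.0148). The sign of r thus differed between the 2 sets of arrays, and only the r within the 23 passed after adjustment. The difference between the 2 was not tested.

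**Figure D3:**
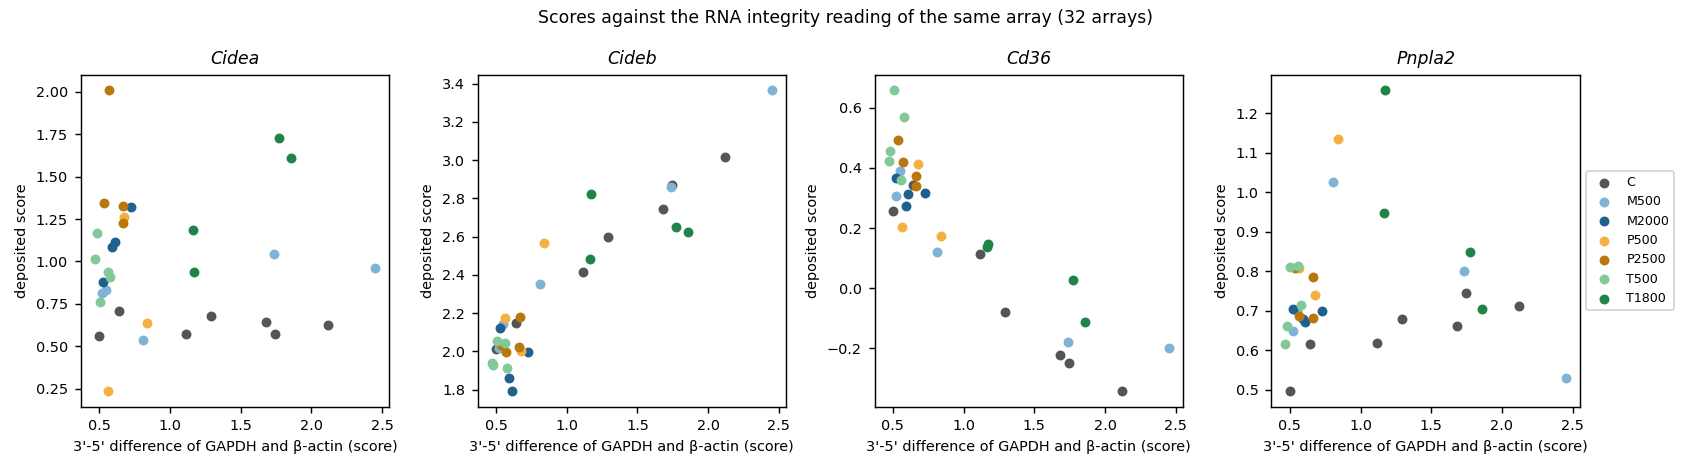
Deposited score (y axis) of Cidea, Cideb, Cd36 and Pnpla2 against the 3′ minus 5′ difference of the GAPDH and β-actin control probe sets of the same array (x axis, score), 1 point per array, coloured by group. Cideb rises along the axis (r = 0.930), Cd36 falls (r = -0.905) and Cidea has no slope (r = 0.0007).

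With the 3′ over 5′ reading as a covariate, the Cidea calls stood and the others were lost. Cidea differed from controls by 0.957 ± 0.169 (SE; limma adjusted p = 0.0149) at propiconazole 2500 ppm and by 0.716 ± 0.155 (SE; limma adjusted p = 0.0105) at triadimefon 1800 ppm. Fabp5 at propiconazole 2500 ppm was at -0.517 ± 0.132 (SE; limma adjusted p = 0.177). Between triadimefon levels, Cideb was at 0.0930, Dgat2 at 0.171 and Cd36 at -0.102 (limma adjusted p from 0.538 to 0.782). Cideb at myclobutanil 2000 ppm moved from -0.601 to -0.195, and Cd36 at triadimefon 500 ppm from 0.520 to 0.245. Without the 9 arrays of high reading, which leaves 3 controls and 1 triadimefon 1800 ppm liver, Cidea was at 0.864 (limma adjusted p = 0.125) for propiconazole and 0.324 (limma adjusted p = 0.515) for triadimefon. That single liver is assumed to vary like the other groups. In it Cideb was higher than in the 3 controls by 0.633, Cidec by 0.632, Pnpla2 by 0.683 and Dgat2 by 1.09. These members were picked by their result in that fit, so they do not describe the whole set. The median difference over all probe sets in that fit was 0.0422. The SD of the scores was 0.915 on that array and 0.757 to 0.820 on the 3 controls. Whether scores across that array were shifted was not tested.

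**Figure D4:**
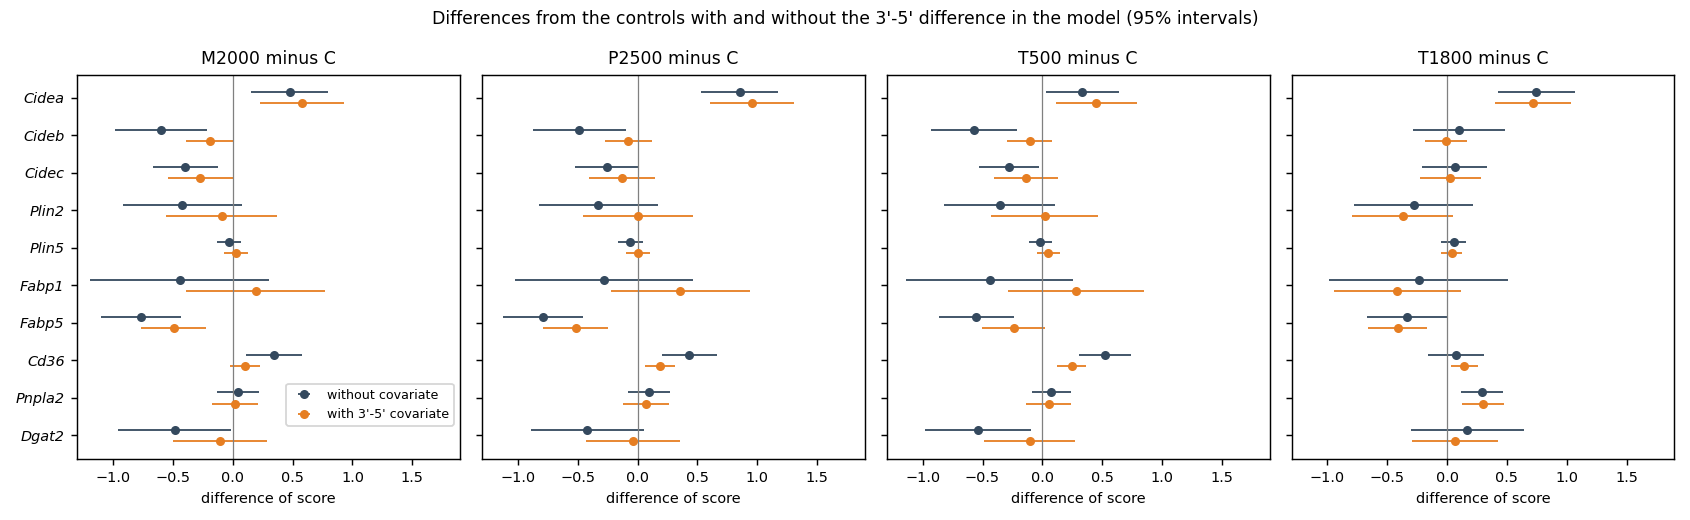
Difference of score from the controls (x axis) of the 10 genes (y axis) at M2000, P2500, T500 and T1800 without (dark) and with (orange) the 3′ over 5′ reading in the model, with 95% intervals. Cidea barely moves (0.855 to 0.957 at P2500), whereas Cideb at M2000 goes from -0.601 to -0.195.

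The wider pathway was read from 50 listed genes of droplet coats, lipolysis, triglyceride synthesis and fatty acid uptake, activation and binding, of which 49 were measured. At triadimefon 1800 ppm 3 of 49 rose and 0 fell, where 1.17% of all probe sets passed, and in the other 5 groups 0 passed against the controls. After quantile normalisation the triadimefon 1800 ppm counts were 2 higher and 3 lower, the latter Hsd17b13, Abhd5 and Lipc, and at propiconazole 2500 ppm Plin3 was then called higher and Acsl5 lower. Without the arrays of high 3′ over 5′ reading, a single triadimefon 1800 ppm liver is left. The median difference over the 49 genes was then 0.257, beside 0.0422 over all probe sets. These genes and all probe sets were not matched by level. The 3 genes that rose without these changes were Plin3, a droplet coat protein, Acsl3, which activates fatty acids at forming droplets, and Lpin3, a phosphatidate phosphatase of triglyceride synthesis. Plin3 scored 2.20, 1.77, 2.03 and 1.68 against 0.982 to 1.52 in controls, with no overlap, a difference of 0.668 ± 0.110 (SE; limma adjusted p = 0.000926). Acsl3 differed by 0.440 ± 0.0784 (SE; limma adjusted p = 0.00216), with 4 of 4 livers above all controls. Lpin3 differed by 0.150 ± 0.0367 (SE; limma adjusted p = 0.0341), with 3 of 4 above. With the 3′ over 5′ covariate all 3 still passed, at 0.635, 0.414 and 0.148, and after quantile normalisation Lpin3 did not, at 0.114 (limma adjusted p = 0.149). Without the arrays of high reading Acsl3 did not, at 0.257 (limma adjusted p = 0.186). The median over the 49 genes was 0.07 at triadimefon 1800 ppm and between -0.11 and 0.01 in the other groups. Between the triadimefon levels 18 of 49 were higher at 1800 ppm and 0 lower, beside the 24.8% of all probe sets, and with the covariate 0 of 49 passed. The counts were 5 higher and 3 lower after quantile normalisation. Without the arrays of high reading, with a single liver at 1800 ppm, the median over the 49 genes was 0.290. Over all probe sets, again not matched by level, it was 0.0614.

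Cell type markers were read beside these values. Adipoq, Plin1 and Fabp4, defining genes of adipocytes, had mean control scores of -0.225, -0.155 and -0.254. Of the other measured adipocyte markers, Lep was at -0.171, Cfd at 0.357 and Cidec at 1.82. Summed over the 6 measured adipocyte markers, of which Cidec is 1, the score was 0.891 to 1.80 in controls, 1.42 to 1.91 at triadimefon 1800 ppm and 0.672 to 1.26 at propiconazole 2500 ppm. Over the 5 without Cidec, these ranges were -0.901 to -0.117, -0.445 to 0.177 and -0.730 to -0.381. The triadimefon sums thus reached above the controls in both readings. The 8 measured Kupffer cell markers summed to 11.4 to 15.7 at triadimefon 1800 ppm, 8.68 to 11.2 at propiconazole 2500 ppm and 8.29 to 12.8 in controls. The 8 stellate cell markers summed to 6.29 to 7.28 at triadimefon 1800 ppm, above the controls' 4.60 to 5.53, and the 5 biliary markers to 0.516 to 1.21 against 0.0270 to 0.318. The median difference over the 5 biliary markers was only 0.0245. Hepatocyte and endothelial markers were also mostly higher at triadimefon 1800 ppm, though their sums overlapped the controls. Differences were above 0 for 9 of 9 (median 0.365) and 5 of 6 (median 0.112). At propiconazole 2500 ppm they were above 0 for 1 of 9 (median -0.241) and 1 of 6 (median -0.123). Of all the markers, Col1a2 (0.313, limma adjusted p = 0.0410) and Epcam (0.720, limma adjusted p = 0.000791) passed against the controls, both at triadimefon 1800 ppm. The part of these cell types in the results for Cidea was not tested.

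The genes whose scores over the 32 arrays were most like those of the members called against the controls were taken as the 3 of highest r, as a description. For Cidea these were Pir (r = 0.817), Abcb1a (0.799) and Metap1d (0.784). Within groups, after subtracting group means, the same r values were 0.657, 0.667 and 0.581. For Fabp5 they were Acsl5 (0.875), Csrp1 (0.867) and Cdh2 (0.860), and 0.831, 0.709 and 0.739 within groups. The arrays share the treatment groups and, for Fabp5, the 3′ over 5′ reading.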

How the data were processed

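Values were the scores the authors deposited for 31099 probe sets. They came with a background correction, normalisation and log base not given in the sources used here. Of 31099, 57 control probe sets were left out of the tests, which leaves 31042. Of 35 columns, 3 were empty and not used. Symbols came from the platform annotation: 20826 probe sets had 1 symbol, 436 several and 9780 none. All 7 groups entered 1 limma 3.58.1 model (R 4.3.3), and 12 contrasts were read from it with a Benjamini-Hochberg threshold of 0.05. The intervals cover 95%. Since the scale of the scores is unknown, limma was run on them as deposited. The script was tested on simulated data. Correlations used permutation p-values from 100000 resamples, or all orders for 9 arrays. All 10 members are named, and of the pathway lists every gene past the threshold against controls. The members and lists were chosen with earlier results of these data known. Promoter letters are RefSeq's, GRCr8. The alternatives were quantile normalisation, probe sets without the dimmest 40%, a block for the series of animal numbers, either series alone, 2-group fits, a replicate block, trend and robust moderation, the 3′ over 5′ reading as a covariate, arrays of high reading left out, other probe sets, each array left out, and, chosen after seeing the data, arrays of high Tnp1 left out.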

Additional observations from a re-analysis of the deposited data

Results flagged for a closer look

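One Cidea score at propiconazole 2500 ppm, replicate 1, was 2.01, far from the other 3 livers at 1.23 to 1.35. One Dgat2 score at triadimefon 1800 ppm, replicate 1, was 4.08, where the others scored 3.13 to 3.15. The gap to the nearest liver was above Dixon's 95% critical value in both, and chance gives this in about 1 in 20 of the 60 gene and group sets. In all, 3 members differed between the levels of triadimefon by the test of the difference itself (1800 minus 500 ppm, limma adjusted p from 0.0140 to 0.0393): Cideb by 0.669, Cd36 by -0.444 and Dgat2 by 0.706. In that comparison 24.8% of all probe sets also passed.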

How the results depend on the processing

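Cidea passed under 16 of 21 alternatives at propiconazole 2500 ppm (0.677 to 0.957) and 16 of 22 at triadimefon 1800 ppm (0.324 to 0.887), with the same direction in each. Fabp5 at propiconazole 2500 ppm passed under 7 of 21 (-0.865 to -0.517). The number of members called at propiconazole 2500 ppm was 2 as reported. It was 1 with the animal number series as a block, with only these 2 groups in the fit and with the 3′ over 5′ covariate. It was 0 among animals numbered below 3000 and without the arrays of high reading. In that order, these settings called 18, 39, 25, 9 and 21 of all 31042 probe sets. At triadimefon 1800 ppm the count of 1 became 2 after quantile normalisation, 0 among animals numbered above 3000 and 0 without the arrays of high Tnp1. These settings called 432, 13 and 256 of all probe sets. Between triadimefon levels the count of 3 became 0 with the number series as a block, 0 with the covariate, 6 without the arrays of high reading and 0 without those of high Tnp1. At myclobutanil 2000 ppm the count of 0 became 1 after quantile normalisation, with 2 groups in the fit and with trend and robust moderation. Of all probe sets, 79, 28 and 120 then passed. At triadimefon 500 ppm the count of 0 became 1 after quantile normalisation and with that moderation, beside 41 and 96 of all probe sets. Leaving out 1 array at a time gave 0 to 4 members at myclobutanil 2000 ppm and 0 to 3 at triadimefon 500 ppm. It gave 0 to 3 at propiconazole 2500 ppm, 0 to 1 at triadimefon 1800 ppm and 2 to 4 between triadimefon levels. Calls over all probe sets moved too. Without control replicate 3 they were 3013 at myclobutanil 2000 ppm, 4464 at triadimefon 500 ppm and 1030 at propiconazole 2500 ppm. The second Dgat2 probe set reversed the sign at myclobutanil 2000 ppm (0.0652), triadimefon 500 ppm (0.0311) and between triadimefon levels (-0.156). The causes were not tested. With the replicate number (listing order) as a block, the count at propiconazole 2500 ppm became 0, beside 10 of all probe sets. Apart from fits with a single triadimefon 1800 ppm animal, counts at the other settings and in the other comparisons stayed within 1.5 times. The members behind them could change. Between triadimefon levels, quantile normalisation called Plin2 and Cd36, and neither Cideb nor Dgat2. A single triadimefon 1800 ppm animal is left among animals numbered below 3000, and also without the arrays of high reading. Counts of members called from it are therefore not listed.

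The titles give an animal number and no replicate number, so the replicate numbers here follow the listing order within each group. Same-numbered arrays deviated together with a median r of -0.0101 (76 pairs, -0.666 to 0.596), and differently numbered ones with 0.00705 (358 pairs). Numbers of this kind cannot show whether animals were paired. With that number as a block, propiconazole 2500 ppm called 0 members, triadimefon 1800 ppm 1 and the triadimefon levels 3. Of all probe sets, 10, 506 and 8386 were then called. Arrays within a group correlated at 0.933 to 0.996, and no 2 held the same values.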

Other observations

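Transcripts of late sperm cells varied together across the arrays of RNA labelled as liver. Prm1, a protamine gene that packs sperm DNA, scored from -0.329 to 3.15. Its highest scores were 3.15 at triadimefon 1800 ppm replicate 2, 2.68 and 2.42 at myclobutanil 500 ppm replicates 5 and 2, and 2.51 at myclobutanil 2000 ppm replicate 5. It was below 0 in controls 5 and 6 and in triadimefon 1800 ppm replicates 1, 3 and 4. Star, a gene of steroid-making cells, stayed between -0.270 and -0.0775 in all 32 arrays. Of the other listed genes of such cells, Insl3 ran from -0.0297 to 0.186 and Cyp17a1 from -0.169 to 0.606.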
